A study of Glycine max and Glycine soja with 189 samples.

Results

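The transcripts described here are the 100 of 73320 that stood highest in the wild soybean *Glycine soja* over all other genotypes, among the soybean transcripts whose mRNA abundance was measured by RNA sequencing. For each transcript, the mean RPKM (reads scaled to transcript length and library depth) of the 3 replicates was taken in each of 63 groups as log2(mean + 1). The score was the lowest of the 9 *G. soja* groups minus the highest of the 54 groups of other genotypes, and the 100 highest scores were kept. The transcripts were thus selected on the difference between *G. soja* and the other genotypes, which is given below as a description without a test. Photoperiod and time of day within *G. soja* were not contrasts of the rule, although a rule on the lowest group favours steady transcripts.

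The plants were *G. soja* (1 accession, no maturity alleles given), the cultivars Clark (e1E2E3E4e5E7) and Williams 82 (E2), and 4 near isogenic lines in the Clark background. These were L65-3366 (E1E2E3E4e5E7), L66-432 (e1e2E3E4e5E7), L74-441 (e1E2e3E4e5E7) and L92-1195 (e1E2e3E4E5E7), shortened below to L65, L66, L74 and L92. Because the lines share most of their genome with Clark, the 6 cultivated genotypes are not independent of each other. All were grown under short days (SD, 10 h of light), under long days for 21 days with a shift to short days for the last 5 days (LD-SD) or under long days (LD, 16 h of light), and sampled at T1 (6:30, before lights on), T3 (14:30) and T5 (22:30, dark under SD and shortly before lights off under LD). Each group has 3 libraries, which makes 27 libraries of *G. soja* and 162 of the other genotypes. The sample records give the first trifoliate leaf at 26 days after planting, whereas the methods describe the whole shoot from the cotyledon upwards at 3 weeks, and the transcript identifiers carry no gene names with which the tissue could be checked.

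*G. soja* is the wild relative from which cultivated soybean was domesticated. Soybean is a short-day plant: long nights sensed in the leaves promote flowering, and the circadian clock sets the daily rhythm of many leaf transcripts. Wild and cultivated soybean differ in sequence, in gene content and in the regulation of genes. The reads of every genotype were aligned to transcripts of the cultivar Williams 82, so a transcript can be measured in *G. soja* only where Williams 82 has a like sequence. The identifiers name a chromosome and a place along it (Glyma04g35130 lies on chromosome 4), and neither gene names nor functions were available for them here.

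Mapped reads per library, recovered from the whole-read steps of the low RPKM values, ranged from 6.41 M to 12.7 M in *G. soja* (median 9.23 M) and from 4.92 M to 18.2 M in the other genotypes (median 9.55 M). They made up 83.9% to 88.3% of the recorded reads in *G. soja* (median 86.7%) and 68.4% to 89.5% in the other genotypes (median 88.2%). The part of this gap in the levels was not tested. Library by library, the correlation of log2 values with the other libraries of the same group was lowest for LD-SD T3 replicate B of *G. soja* (mean r = 0.912) and lay between 0.927 and 0.972 for the other *G. soja* libraries.

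The scores of the 100 transcripts ran from 0.466 to 5.41 on the log2 scale (median 0.943), with 48 above 1, 14 above 2 and 3 above 3. Their mean level in *G. soja* ranged from 1.05 to 184.5 RPKM with a median of 4.55 RPKM, and 74 had a mean below 10 RPKM. In the other genotypes their mean levels had a median of 0.122 RPKM, 49 were below 0.1 RPKM, and 18 reached 1 RPKM or more. In 78 of the 100, the lowest *G. soja* library lay above the highest of the 162 other libraries. That was so for 0.119% of all transcripts, and nothing is read from this count since the rule used the same contrast. Summed over the 100 transcripts, the level was 1026 to 1717 RPKM in the *G. soja* libraries and 93.4 to 177 RPKM in the other libraries. The rule chose the transcripts by this gap, so nothing is read from the sums either. The same score reckoned for each genotype against the remaining 6 was above 0 for 380 transcripts in *G. soja*, 50 in Williams 82, 2 in L74, 1 in Clark and 0 in L65, L66 and L92. Clark and its lines share most of their genome, so their counts were bound to be low and give no scale for *G. soja*.

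**Figure D1:**
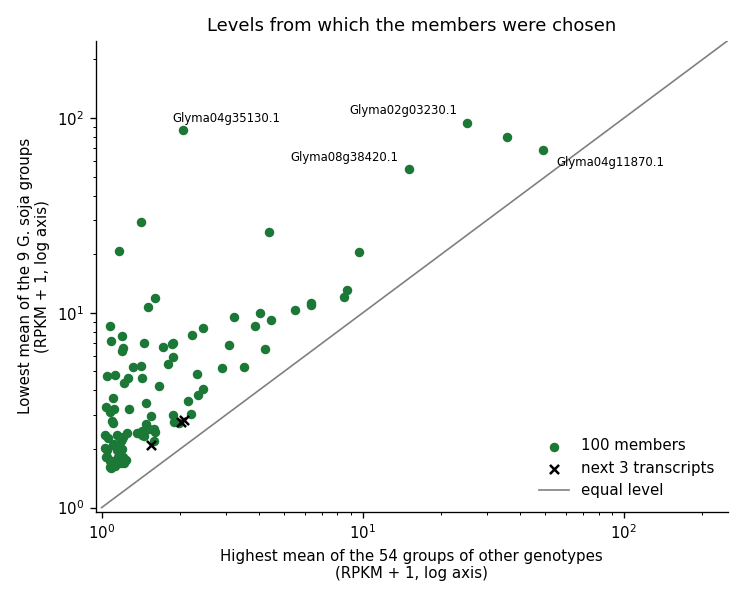
Lowest mean of the 9 G. soja groups (vertical axis, RPKM + 1, log axis) against the highest mean of the 54 groups of other genotypes (horizontal axis, RPKM + 1, log axis), for the 100 selected transcripts (points) and the next 3 by score (crosses). The distance above the line of equal level is the score, from 0.466 to 5.41, and Glyma04g35130.1 stands apart at the upper left with 86.0 RPKM in its lowest G. soja group and 1.04 RPKM in its highest other group.

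Glyma04g35130.1 had the highest score and the highest level of all. It ranged from 48.8 to 393 RPKM over the 27 *G. soja* libraries (median 190.1 RPKM) and from 0 to 2.42 RPKM over the 162 others (median 0.433 RPKM). Its mean of 184.5 ± 85.3 RPKM in *G. soja* was 377 times the mean of 0.489 ± 0.290 RPKM in the other genotypes (s.d. over 27 and 162 libraries). The transcript was also detected in the other genotypes, with 1 of the 162 libraries at 0 and 1578 reads over all of them.

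Of the next highest scores, Glyma01g01700.2 ranged from 18.7 to 66.1 RPKM in *G. soja* (median 48.0 RPKM), against at most 1.25 RPKM in the others. Glyma06g46330.1 ranged from 12.4 to 90.1 RPKM in *G. soja* (median 38.0 RPKM), against at most 0.443 RPKM, or 3 reads, in any other library. Both were near the floor of detection in the other genotypes, where 150 and 162 of the 162 libraries had 3 reads or fewer.

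Glyma14g08776.1 was the steadiest of the high scores across photoperiods and time points. It lay between 6.39 and 11.4 RPKM in the 27 *G. soja* libraries (median 8.65 RPKM), and 153 of the 162 other libraries were at 0, with no more than 1 read in any library. Its highest *G. soja* group was 1.30 times its lowest, the smallest such ratio among the 100.

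Glyma06g22900.1 had 9.25 to 27.4 RPKM in *G. soja* (median 15.2 RPKM), against at most 0.847 RPKM in the others. Glyma01g24790.1 had 7.11 to 21.5 RPKM in *G. soja* (median 13.9 RPKM), against at most 1.51 RPKM, which was 2 reads on this transcript of 156 bases. Glyma04g35120.2 had 4.97 to 12.3 RPKM (median 8.83 RPKM), against at most 0.253 RPKM. For these transcripts the *G. soja* libraries and the others were apart without overlap.

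Glyma12g23056.1 had 3.13 to 14.1 RPKM in *G. soja* (median 9.22 RPKM), and at most 1 read in any other library. Glyma02g33660.1 had 3.95 to 29.7 RPKM in *G. soja* (median 12 RPKM) and at most 0.493 RPKM in the others. Glyma15g15610.1 differed from these in that it was measured in every other library, with a median of 2.13 RPKM and a highest value of 4.92 RPKM, against 11.9 to 136 RPKM in *G. soja* (median 35.4 RPKM).

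**Figure D2:**
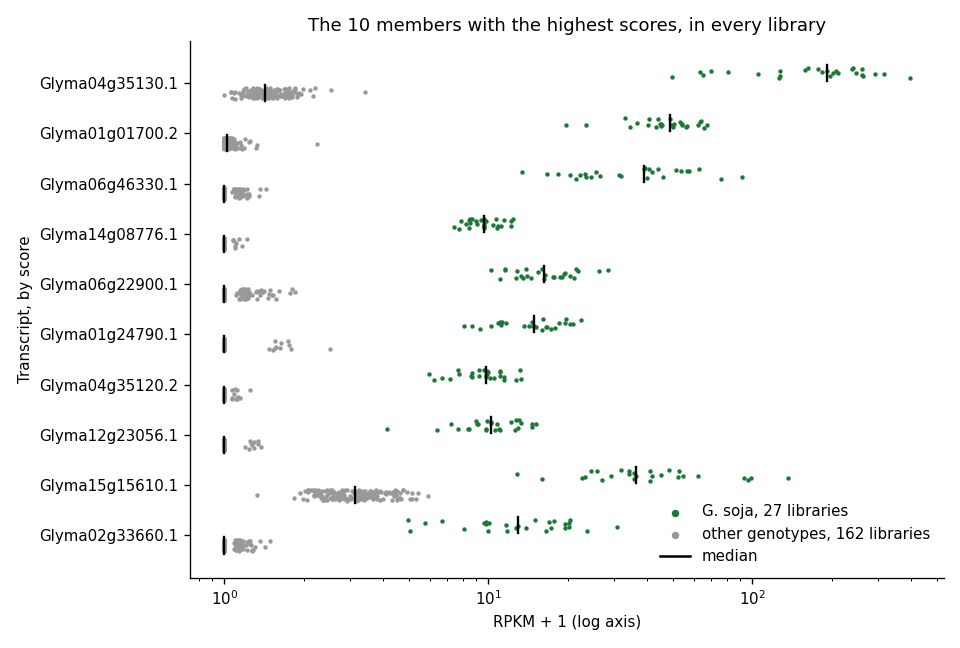
RPKM + 1 (log axis) of the 10 transcripts with the highest scores, from top to bottom, in each of the 27 G. soja libraries (green, upper row of each transcript) and the 162 libraries of other genotypes (grey, lower row), with black bars for medians. In none of the 10 do the rows overlap, and 8 have a median of 0 or close to it in the other genotypes, while Glyma04g35130.1 (0.433 RPKM) and Glyma15g15610.1 (2.13 RPKM) are measured there.

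Apart from Glyma04g35130.1, the most abundant of the selected transcripts were not the most restricted to *G. soja*. After Glyma04g35130.1 came Glyma02g03230.1, with 40.0 to 460 RPKM in *G. soja* (median 132 RPKM) and 4.95 RPKM as the median of the others. One Williams 82 library under LD at T3 reached 52.6 RPKM, so the libraries overlapped. Its mean over Williams 82 libraries was 11.8 RPKM, against 5.4 RPKM in Clark.

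Glyma04g11870.1 had 28.1 to 197 RPKM in *G. soja* (median 96.7 RPKM), and its mean of 103 ± 42.0 RPKM was 3.46 times that of the others. Glyma08g38420.1 had 26.3 to 152 RPKM in *G. soja* (median 85.6 RPKM), and its mean was 10.1 times that of the others. These transcripts of chromosomes 4 and 8 moved together from library to library in *G. soja*, where the RPKM of Glyma04g11870.1 was 1.04 to 1.36 times that of Glyma08g38420.1 (median 1.24). In the other genotypes the ratio was 2.01 to 6.82 (median 3.58). Whether reads could be shared between like transcripts is not stated, so their separate levels are uncertain, and the pair was picked out after its values were seen.

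Glyma17g11705.1 was high and varied little, with 75.4 to 127 RPKM in *G. soja* (median 96.1 RPKM) and at most 39.2 RPKM in the others. Its spread over the 27 libraries was 13.9% of the mean, the lowest coefficient of variation among the 100. Time of day was still past the threshold for it, with a mean log2(RPKM + 1) of 6.46 at T1 and 6.74 at T5. Its mean in *G. soja*, 97.7 RPKM, was 3.62 times the mean of 27 RPKM in the others.

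The threshold fell in a continuous run of scores. The last 3 transcripts taken in were Glyma10g03390.1 (score 0.471), Glyma13g32470.1 (0.470) and Glyma05g06324.1 (0.466). The first 3 left out were Glyma05g27290.5 (0.451), Glyma20g38120.2 (0.446) and Glyma17g23670.1 (0.433). Transcripts on both sides overlapped between genotypes in single libraries: Glyma10g03390.1 had 0.731 to 5.64 RPKM in *G. soja*, against up to 1.53 RPKM in the others, and Glyma05g27290.5 had 1.53 to 5.79 RPKM, against up to 1.54 RPKM.

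The set was made mostly of transcripts from loci with a single listed transcript. Of the 100, 90 came from such loci (90%), against 57.8% of all transcripts. Their lengths ranged from 156 to 3432 bases with a median of 928.5, against a median of 1744 for the 60780 transcripts that passed the filter of 0.1 RPKM on the mean in *G. soja*. Counts were small for many: in the median *G. soja* library the transcripts had 3 to 3147 reads (median 41.5), 17 had fewer than 10 reads, and 24 had 3 reads or fewer in at least 1 *G. soja* library. On the side of the other genotypes, 40 had 3 reads or fewer in every library and 28 were at 0 in at least 90% of libraries. A level of 0 there means that it was not detectable at this depth.

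Among the libraries of other genotypes, L92 under LD at T1 replicate C stood apart by its reads of the selected transcripts, at 8.63 M mapped reads. Of the 49 transcripts with a median of 0 in the other genotypes, 20 had reads in it, against a median of 6 over the 162 libraries. These reads summed to 31 and gave 1.75% of the summed level in *G. soja*, against a median of 0.485%. The library with the next most transcripts, L66 under LD at T5 replicate A, had reads of 19, at 18.2 M mapped reads and 0.925% of the *G. soja* sum. The L92 library also held the highest value outside *G. soja* for 8 of the 100, Glyma04g35130.1 (43 reads) and Glyma01g01700.2 (31 reads) among them. Without it the same 100 transcripts were chosen, an alternative added after the data were seen.

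By their identifiers the 100 transcripts came from 96 loci on 20 chromosomes, and 4 loci gave a pair of transcripts each. Chromosomes 1 and 16 held the most, with 11 loci (11.5% of the selected loci, against 4.38% of all loci) and 9 loci (9.38% against 3.99%). With loci sorted by identifier, 8 pairs lay within 5 loci of each other, covering 16 of the 96 loci, and no run of 3 was found at that distance. Of these pairs, 4 were direct neighbours. Within 10 loci the longest run was of 3 loci (Glyma01g02080, Glyma01g02160 and Glyma01g02171).

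The pair with the highest scores was Glyma04g35120 and Glyma04g35130, direct neighbours on chromosome 4. Glyma04g35120.2 averaged 8.67 ± 1.97 RPKM in *G. soja* and Glyma04g35130.1 184.5 ± 85.3 RPKM (s.d. over 27 libraries), so the levels of the neighbours differed widely and, within *G. soja*, the second varied more. Of the transcripts of other loci within 10 loci of Glyma04g35130, 22 passed the filter on low values. None of them stood higher in *G. soja* by more than 0.28 on the log2 scale, and their median was 0.09. The lowest, Glyma04g35030.1 at 9 loci, was at -2.05. On the side of higher numbers the nearest locus tested was Glyma04g35180, 5 loci away.

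Glyma01g01651 and Glyma01g01700 lie 5 loci apart on chromosome 1. Glyma01g01651.1 had 2.05 to 15.2 RPKM in *G. soja* (median 7.78 RPKM) and was also measured in the others, up to 2.90 RPKM in a Williams 82 library, so the libraries overlapped. Glyma02g33550 and Glyma02g33660 are direct neighbours, and Glyma02g33550.1 had 2.17 to 7.64 RPKM in *G. soja* (median 4.03 RPKM), against up to 1.34 RPKM in the others. Each of these pairs thus joined a transcript close to 0 in cultivated soybean with one that was expressed there.

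Glyma01g31760.1 and Glyma01g31780.1, also direct neighbours, were low in *G. soja*, with medians of 2.96 and 2.38 RPKM. In the other genotypes they were at 0 in 160 and 152 of 162 libraries. Since Glyma01g31780.1 had a median of 5 reads in *G. soja* and was at 0 in 1 of those libraries, its level was poorly determined. Glyma16g09963.1 (1.03 to 4.36 RPKM in *G. soja*, median 2.40 RPKM) and Glyma16g09981.1 (1.15 to 3.84 RPKM, median 1.81 RPKM) lie 2 loci apart, with at most 0.193 and 0.627 RPKM in the others.

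Loci that flank the selected ones and were not selected themselves were compared between *G. soja* and the other genotypes. The comparison used limma on the libraries of all genotypes. The standard errors and p-values of this fit come from the spread between replicate libraries of a group. That spread is pooled over all genotypes, so for transcripts near 0 in the other genotypes the errors are too small for *G. soja*. With *G. soja* as 1 accession, the standard errors and p-values do not measure the spread between genotypes. The question was whether neighbours that were not selected were higher in *G. soja*. Adjacent loci that were selected themselves were left out, whereas the shares over all transcripts hold them. The neighbourhood as a whole was thus not tested. Of 223 transcripts at the remaining directly adjacent loci, 167 passed the filter on low values. Of these, 63 (37.7%) were higher and 58 (34.7%) lower in *G. soja* at an adjusted p below 0.05. Among all 61180 transcripts tested, 31.5% were higher and 28.1% lower. The median difference of the 167 was -0.0032 on the log2 scale of RPKM + 1, against 0.0096 over all transcripts. Differences above 1 on that scale were found for 8 of the 167 that were higher, beside 1.01% of all transcripts tested. They were found for 5 of the 167 that were lower, beside 1.05% of all. Some of the 167 were transcripts of the same locus, such as those of Glyma20g38100, and are not independent.

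The largest rise at an adjacent locus was that of Glyma02g03250.1, next to Glyma02g03230, by 1.65 ± 0.20 (s.e., adjusted p = 1.24e-12 by limma). Its libraries overlapped widely, with 5.43 to 281 RPKM in *G. soja* and 0.480 to 510 RPKM in the others. A clearer rise was seen on chromosome 18, where Glyma18g46033 and Glyma18g46060, selected loci 3 loci apart, had Glyma18g46026.1 and Glyma18g46050.5 as neighbours. Glyma18g46026.1 had 0.865 to 4.32 RPKM in *G. soja* and 0.0705 to 0.665 RPKM in the others, and Glyma18g46050.5 had 3.01 to 12.6 RPKM and 0.260 to 3.47 RPKM. The differences were 1.26 ± 0.03 and 1.56 ± 0.05 on the log2 scale (s.e., adjusted p = 2.29e-71 and 5.08e-63 by limma), and in the first of these no libraries overlapped. Other neighbours of the pair did not share so clear a rise. Glyma18g46040.2, next to Glyma18g46033, differed by 0.77 with overlapping libraries (0.321 to 4.17 RPKM in *G. soja*, 0.0415 to 4.09 RPKM in the others). Glyma18g46070.1, next to Glyma18g46060, was lower in *G. soja* (-0.32 ± 0.085, s.e., adjusted p = 0.000726 by limma).

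Several adjacent transcripts were lower in *G. soja*. Glyma15g37390.1, next to the selected Glyma15g37370, had 0.0658 to 0.634 RPKM in *G. soja* and 1.43 to 8.32 RPKM in the others, a difference of -1.87 ± 0.04 (s.e., adjusted p = 1.82e-86 by limma). Glyma02g10331.1, next to Glyma02g10320, had at most 0.137 RPKM in *G. soja* and 0.167 to 7.99 RPKM in the others, and Glyma14g08762.1, next to Glyma14g08776, had at most 1.32 RPKM in *G. soja* and 0.998 to 7.52 RPKM in the others. Glyma12g23033.1, next to Glyma12g23056, was at 0 in all 27 *G. soja* libraries and between 0.188 and 2.72 RPKM in the others. At these places a transcript high in *G. soja* thus had a neighbour by identifier that was low there.

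The same was looked for over a wider distance with a mirror list, the 100 transcripts of 89 loci highest in the other genotypes over *G. soja* by the same score (0.994 to 3.60). None shared a locus with the selected transcripts, and 4 of the 96 selected loci lay within 5 loci of one. Glyma15g37370.1 averaged 9.03 RPKM in *G. soja* and 0.318 RPKM in the others, while Glyma15g37320.1, 3 loci away, averaged 0.417 RPKM in *G. soja* and 10.6 RPKM in the others. Glyma17g06580.1 (3.59 and 0.313 RPKM in *G. soja* and the others) and Glyma17g06540.2 (0.289 and 4.71 RPKM) were also 3 loci apart. On chromosome 16, Glyma16g09963.1 and Glyma16g09981.1 lay 5 and 3 loci from Glyma16g10020.1, which averaged 0.0206 RPKM in *G. soja* and 3.34 RPKM in the others. Since the scores chose both lists, these values are a description.

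Of further transcripts of selected loci, not selected themselves, 3 passed the filter and all 3 were higher in *G. soja* by limma. The rule had scored them on this same contrast, and Glyma20g38120.2 was among the first left out, so its call was fixed in advance. Nothing is read from this count beside the 31.5% of all transcripts given above. Glyma16g22961.3 had 0 to 4.53 RPKM in *G. soja* and at most 0.294 RPKM in the others (difference 1.41 ± 0.03). This error pools the spread of all genotypes and understates that in *G. soja*. Glyma20g38120.2 and Glyma10g03390.3 differed by 1.21 ± 0.04 and 1.126 ± 0.059 (s.e.). Reads shared by transcripts of a locus could have entered either, so they do not stand for separate measurements. With a minimum mean of 1 RPKM over all libraries, none of these 3 was tested.

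**Figure D3:**
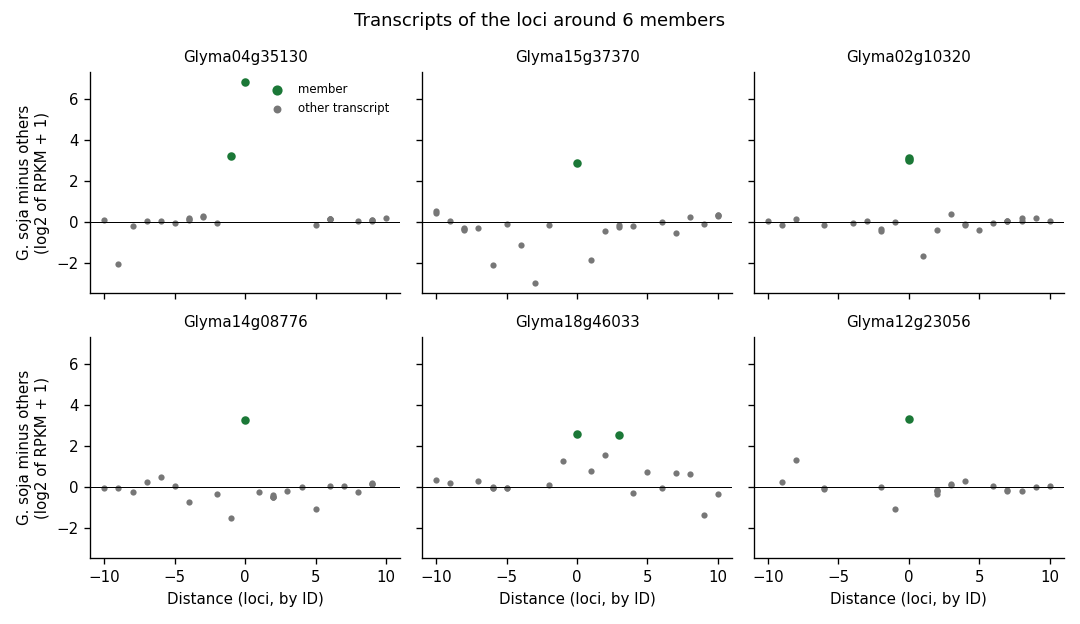
Difference between G. soja and the other genotypes in log2(RPKM + 1) (vertical axis, limma estimate) for the transcripts of the 10 loci on either side of 6 selected loci (horizontal axis, distance in loci by identifier), with selected transcripts in green and others in grey. Other transcripts above 1 appear at Glyma18g46033, where they reach 1.56, and at Glyma12g23056, where Glyma12g22880.1, 8 loci away, is at 1.29, and low neighbours reach -3.01 near Glyma15g37370. The 6 loci were picked after the values were seen.

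Within *G. soja* the ratio of the highest to the lowest of the 9 group means, which also holds the spread between replicates, had a median of 2.43 over the 100 transcripts and ranged from 1.30 to 16.9, with 26 transcripts below 2 and 11 above 5. The highest group was at T1 for 34, at T3 for 29 and at T5 for 37 transcripts. It was under SD for 26, under LD-SD for 39 and under LD for 35. The lowest group was LD at T1 for 29 of the 100. Such counts of highest and lowest groups were not made over all transcripts, so they are given as a description only. All 100 passed the filter in the fit of the 27 *G. soja* libraries, and 64 were called in at least 1 of 8 comparisons with an adjusted p below 0.05 over 60780 transcripts. Of all transcripts tested, 68.8% were called in at least 1.

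**Figure D4:**
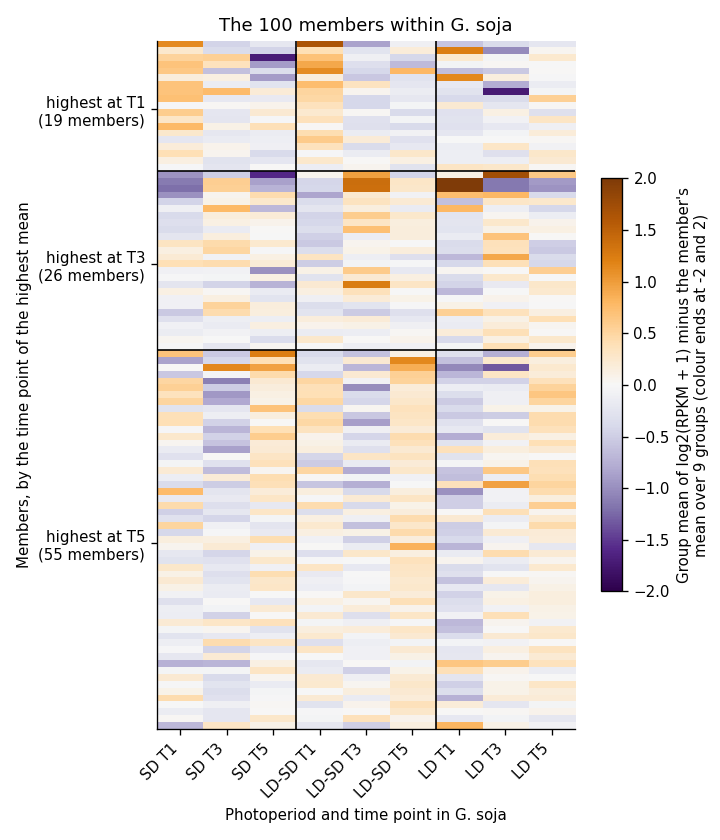
Mean of log2(RPKM + 1) in each of the 9 G. soja groups (columns, SD, LD-SD and LD, each at T1, T3 and T5) minus the mean of the transcript over the 9 groups (colour), for the 100 selected transcripts (rows) ordered by the time point of their highest mean. The mean over photoperiods was highest at T1 for 19, at T3 for 26 and at T5 for 55 transcripts, and most rows are pale, with the strongest colours in a few transcripts at LD T1 and LD T3.

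Averaged over the time points, the contrast of continuous SD with LD was past the threshold for 13 of the 100. Of these, 6 were higher under SD (9.26% of all transcripts were) and 7 were lower (7.92% of all). The median difference of the 100 was -0.0075 on the log2 scale, against 0.0077 over all transcripts, so both medians lay near 0. With 1 replicate letter left out, 4 to 7 transcripts were called.

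Glyma02g24490.1 rose under SD by 1.22 ± 0.18 on the log2 scale (s.e., adjusted p = 0.000116 by limma). At T3 it had 49.8, 35.6 and 46.9 RPKM under SD and 11, 7.35 and 4.16 RPKM under LD. At T1 the values were 47.9, 34.9 and 42.1 RPKM under SD and 19.7, 24.0 and 19.6 RPKM under LD. The groups did not overlap at these times, whereas at T5 they did, with 19.8, 26.3 and 48.1 RPKM under SD and 36.7, 21.8 and 18.7 RPKM under LD. The call was kept in all alternatives.

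Glyma18g12740.1 rose by 0.62 ± 0.11 (s.e., adjusted p = 0.000668), with its largest gap at T1, where it had 14.9, 19.8 and 14.2 RPKM under SD and 5.30, 8.63 and 8.01 RPKM under LD. Glyma20g25251.1 rose by 1.42 ± 0.41 (adjusted p = 0.0209). It was erratic between replicates, with 1.97, 22.7 and 4.40 RPKM under SD at T5, and the call was lost without replicate B or without replicate C.

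Among the transcripts that were lower under SD, Glyma10g15480.1 fell by 1.85 on the log2 scale (s.e. 0.48, adjusted p = 0.0109 by limma). At T3 it had 22.8, 4.96 and 12.4 RPKM under SD and 98.6, 56.6 and 33.2 RPKM under LD. The groups did not overlap at T3, but the replicates of a group differed several fold, and the call was lost without replicate B. Glyma06g46330.1, the third highest score, fell by 0.98 (s.e. 0.27, adjusted p = 0.0150). At T1 it had 22.4, 21.2 and 15.7 RPKM under SD and 43.1, 90.1 and 38.1 RPKM under LD, without overlap. This call was lost without replicate B or C.

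Glyma14g25380.1 fell by 0.77 (s.e. 0.19, adjusted p = 0.00855), mainly at T3 with 6.03, 2.82 and 5.13 RPKM under SD and 27.5, 14.3 and 6.95 RPKM under LD. The call over all time points was lost without replicate A or B.

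The shift experiment asked what 5 days of SD did to plants raised under LD. LD-SD differed from LD for 10 of the 100, of which 6 were higher (7.07% of all transcripts) and 4 were lower (6.91% of all) after the shift. SD and LD-SD are compared with the same LD libraries, so the contrasts are not independent. With 1 replicate letter left out, 3 or 4 transcripts were called.

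Glyma02g24490.1 was higher in LD-SD than under LD by 0.82 ± 0.18 (s.e., adjusted p = 0.00502 by limma), with 36.3, 18.7 and 27.1 RPKM in LD-SD at T3, above all 3 LD values given above, although the call was lost without replicate B or C. Glyma02g32058.1 was higher by 0.66 ± 0.13 (adjusted p = 0.00225). At T1 it had 11.5, 10.1 and 10.5 RPKM in LD-SD and 5.11, 5.42 and 4.68 RPKM under LD, which did not overlap, and the call was lost without replicate C. Glyma14g25380.1 fell by 1.06 after the shift (s.e. 0.19, adjusted p = 0.000989), a call kept in all alternatives. It had 4.95, 2.44 and 3.77 RPKM in LD-SD at T3, below every LD value at that time.

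Glyma01g02080.2 was higher in LD-SD than under LD by 0.70 ± 0.20 (adjusted p = 0.0202), although the largest value, 28.9 RPKM, came from LD-SD T3 replicate B, the library least like its group. Without any one replicate letter the call was lost. Lower after the shift were also Glyma06g46074.1, which fell by 0.71 (s.e. 0.23, adjusted p = 0.0402), and Glyma16g06555.1, which fell by 0.65 (s.e. 0.19, adjusted p = 0.0223). Glyma16g06555.1 had 8.17, 8.18 and 5.13 RPKM in LD-SD at T1 and 18.5, 11.9 and 14.6 RPKM under LD, and its call was lost without replicate A or C. The call for Glyma06g46074.1 was lost without any one letter.

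Set against continuous SD, LD-SD was different for 8 of the 100, with 5 higher (2.77% of all transcripts) and 3 lower (3.02% of all). With 1 replicate letter left out, 3 to 5 were called. Glyma01g02080.2 was higher in LD-SD by 1.06 ± 0.20 (s.e., adjusted p = 0.00229 by limma). At T5 it had 6.22, 4.49 and 5.49 RPKM in LD-SD and 2.31, 2.12 and 1.89 RPKM under SD, and at T1 it had 5.48, 4.48 and 5.08 RPKM in LD-SD and 3.24, 3.63 and 3.17 RPKM under SD. Both pairs of groups were apart, so the rise did not rest on LD-SD T3 replicate B alone, but the call was lost without replicate C.

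Glyma18g12740.1 was lower in LD-SD than under SD by 0.64 (difference -0.64 ± 0.11, s.e., adjusted p = 0.00142). At T1 it had 8.90, 8.39 and 10.5 RPKM in LD-SD, under each of the 3 SD values at that time, although the call was lost without replicate B. Glyma17g20473.1 was higher in LD-SD by 0.44 ± 0.12 (adjusted p = 0.0268) and Glyma02g10320.2 by 0.89 ± 0.26 (adjusted p = 0.0461). The neighbours Glyma16g09963.1 and Glyma16g09981.1 were both lower, with differences of -0.41 ± 0.11 (adjusted p = 0.0326) and -0.36 ± 0.11 (adjusted p = 0.0462). At T3 Glyma16g09963.1 had 1.92, 1.38 and 2.13 RPKM in LD-SD and 4.11, 3.01 and 4.36 RPKM under SD. Each of these 4 calls was lost in 3 or more alternatives.

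The effect of SD against LD was largest in number before dawn. At T1, 32 of the 100 were called, 23 higher under SD (16.2% of all transcripts) and 9 lower (10.4% of all). The median difference of the 100 at T1 was 0.23 on the log2 scale, against 0.11 over all transcripts. With median-of-ratios factors the medians were 0.13 and 0.025, and 18 were called higher (13.4% of all transcripts) and 11 lower (14.8% of all). The rise of the 23 ranged from 0.45 to 1.73. With 1 replicate letter left out, 13 to 21 were called.

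The transcripts of Glyma02g10320 showed the largest change. Glyma02g10320.1 fell by 3.48 on the log2 scale at T1 (s.e. 0.45, adjusted p = 6.52e-06 by limma), with 4.20, 3.64 and 7.01 RPKM under SD and 51.8, 60.7 and 81.7 RPKM under LD. At T3 the direction was turned: it had 43.8, 10.9 and 13.7 RPKM under SD and 9.18, 3.33 and 4.02 RPKM under LD, a difference of 1.71 ± 0.45 (adjusted p = 0.0117). At T5 the groups were close, at 6.39, 6.69 and 8.32 RPKM under SD and 7.53, 4.56 and 5.97 RPKM under LD. The transcript was thus high before dawn under LD and in the afternoon under SD.

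Glyma02g10320.2 had the same course, with a difference of -3.40 ± 0.45 at T1 (adjusted p = 8.53e-06) and 1.72 ± 0.45 at T3 (adjusted p = 0.0114). The calls at T3 were lost without replicate B for both transcripts, and without replicate C for Glyma02g10320.2. The RPKM of the first was 0.815 to 1.35 times that of the second in the *G. soja* libraries (median 1.14). As transcripts of 1 locus they may share reads, and they are not counted as separate evidence. In LD-SD at T3, Glyma02g10320.1 had 31.6, 36.9 and 32.9 RPKM, and at T1 11.3, 6.35 and 10.2 RPKM, so the shifted plants, like those under SD, were higher at T3 than at T1.

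Glyma02g33660.1 also fell at T1, by 1.72 (s.e. 0.30, adjusted p = 0.000159), with 4.06, 5.70 and 7.06 RPKM under SD and 22.6, 19.3 and 19.2 RPKM under LD. At T5 it had 14.0, 16.2 and 18.6 RPKM under SD and 8.63, 8.79 and 8.96 RPKM under LD. The 2 groups were apart at both times, in opposite directions, although the difference at T5 was not past the threshold (adjusted p = 0.124).

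Among the rises at T1, that of Glyma16g22961.2 was the largest. It rose by 1.73 ± 0.30 (s.e., adjusted p = 0.000150), with 4.26, 6.62 and 4.21 RPKM under SD and 0.615, 0.649 and 1.16 RPKM under LD. Glyma14g27625.1 rose by 1.71 ± 0.57 (adjusted p = 0.0290), with 5.14, 11.7 and 2.93 RPKM under SD and 1.01, 0.16 and 2.73 RPKM under LD. The first was apart by several fold, while in the second the nearest values were 2.93 and 2.73 RPKM and the call was lost without replicate A or B and with a pseudocount of 0.1.

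Glyma01g01700.2, the second highest score, rose at T1 by 1.17 ± 0.24 (adjusted p = 0.000928), with 61.4, 66.1 and 55.5 RPKM under SD and 18.7, 44.0 and 22.5 RPKM under LD. The groups did not overlap, but without replicate A the call was lost. Glyma04g35130.1 had 237, 62.6 and 246 RPKM under SD at T1 and 239, 157 and 126 RPKM under LD, and its difference was not past the threshold there or in any other comparison.

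At T3, 14 were called, with 5 higher under SD (7.9% of all transcripts) and 9 lower (8.79% of all), and with 1 replicate letter left out 2 to 8 were called. The median difference was -0.17 on the log2 scale for the 100 and -0.097 over all transcripts. The split depended on the scaling: with median-of-ratios factors 7 were higher (10.4% of all transcripts) and 5 lower (5.57% of all), and the medians were -0.030 and 0.0020.

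Besides Glyma02g24490.1 (2.47 ± 0.32, adjusted p = 9.26e-06) and Glyma14g25380.1 (-1.46 ± 0.34, adjusted p = 0.00399), Glyma20g25251.1 had 8.26, 10.2 and 4.55 RPKM under SD and 1.60, 0 and 0.235 RPKM under LD (2.49 ± 0.71, adjusted p = 0.0189). Glyma01g01651.1 was lower, with 2.55, 4.0 and 7.34 RPKM under SD and 15.2, 11.4 and 9.44 RPKM under LD (-1.27 ± 0.36, adjusted p = 0.0179). Glyma14g38550.1 had 2.5, 1.98 and 2.32 RPKM under SD and 7.21, 5.28 and 4.56 RPKM under LD (-1.02 ± 0.27, adjusted p = 0.0116). Groups did not overlap in any of these, although the calls for Glyma14g25380.1, Glyma20g25251.1, Glyma01g01651.1 and Glyma14g38550.1 were each lost without replicate B. The calls for Glyma01g01651.1 and Glyma14g38550.1 were also lost without replicate A, and that for Glyma20g25251.1 without replicate C.

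At T5, when SD plants were in the dark and LD plants still in light, 3 were called, 1 higher under SD (2.27% of all transcripts) and 2 lower (2.08% of all). Glyma20g02360.1 had 25.6, 26.2 and 26.7 RPKM under SD and 16.7, 17.1 and 17.6 RPKM under LD (0.58 ± 0.14, adjusted p = 0.0225). Glyma13g32470.1 had 1.98, 0.806 and 0.808 RPKM under SD and 10.1, 12.1 and 2.93 RPKM under LD (-1.96 ± 0.46, adjusted p = 0.0170). Glyma11g32540.1 had 1.4, 2.68 and 1.4 RPKM under SD and 3.50, 4.08 and 3.49 RPKM under LD (-0.76 ± 0.19, adjusted p = 0.0215). All 3 were apart between the groups, and each call was lost without replicate A and without replicate B, that of Glyma11g32540.1 also without replicate C. Without replicate A or without replicate B, limma called 0 of the 100 at T5, with 9 and 10 at an unadjusted p below 0.05.

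**Figure D5:**
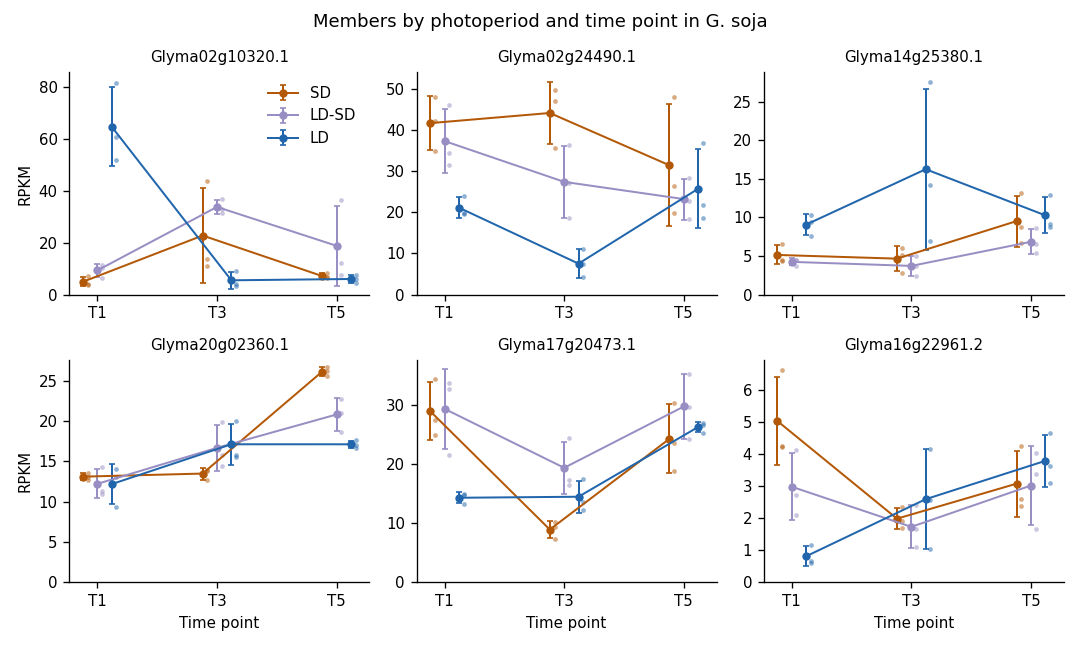
RPKM (vertical axes, from 0) of 6 selected transcripts at T1, T3 and T5 (horizontal axes) in G. soja under SD, LD-SD and LD, as means with bars of 1 standard deviation over 3 replicates and a small point for each replicate. Glyma02g10320.1 is highest at T1 under LD (51.8 to 81.7 RPKM) and at T3 under SD and LD-SD, and Glyma02g24490.1 is lowest at T3 under LD (4.16 to 11 RPKM).

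Time of day, averaged over photoperiods, was past the threshold for 43 of the 100, beside 52.4% of all transcripts. Among these 43 the highest mean was at T1 for 9 (20.9%), at T3 for 10 (23.3%) and at T5 for 24 (55.8%). Of all transcripts called over time, 15.4% were highest at T1, 30.7% at T3 and 53.9% at T5. Glyma20g02360.1 had the smallest p (adjusted p = 1.58e-06 by limma F-test). It was highest at T5, where SD plants reached the values given above and LD-SD plants 18.6, 21.0 and 22.8 RPKM, while at T1 it had 13.0, 13.6 and 12.7 RPKM under SD and 11.4, 11 and 14.3 RPKM in LD-SD.

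Glyma17g20473.1 (adjusted p = 2.69e-06) was low at T3 under SD, with 10.2, 9.30 and 7.32 RPKM, against 27.5, 34.5 and 25.0 RPKM at T1 and 30.4, 23.6 and 18.8 RPKM at T5. Under LD it was low at T1 as well, with 13.2, 14.8 and 14.9 RPKM at T1, 12.3, 13.7 and 17.5 RPKM at T3 and 27, 25.3 and 26.6 RPKM at T5. It was thus low at T3 alone under SD and at both T1 and T3 under LD. With 3 time points, a longer trough cannot be told from a shifted one. Glyma08g10871.1 (adjusted p = 5.97e-06) was lowest at T1 in all 3 photoperiods, from 4.22 to 4.34 RPKM in LD-SD at T1 and from 6.46 to 8.60 RPKM at T3.

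The change over time differed between photoperiods for 28 of the 100, beside 29.2% of all transcripts (F-test over 4 interaction terms). With 1 replicate letter left out, 6 to 22 were called. The smallest p was that of Glyma02g10320.1 (adjusted p = 6.75e-06), followed by Glyma02g10320.2 (adjusted p = 7.37e-06) and Glyma11g32540.1 (adjusted p = 0.000284). Glyma11g32540.1 had 2.82, 4.16 and 3.05 RPKM at T1 and 1.4, 2.68 and 1.4 RPKM at T5 under SD. Under LD it had 1.26, 1.67 and 0.897 RPKM at T1 and 3.50, 4.08 and 3.49 RPKM at T5. It thus stood highest before dawn under SD and in the evening under LD. This interaction call was lost without replicate C. Of the 100, 7 were called in SD against LD at both T1 and T3, beside 6.63% of all transcripts. Calls in opposite directions at the 2 times were found for 5 of the 100, beside 4.14% of all transcripts. Among those called at both times, 5 of the 7 had opposite directions, beside 2517 of 4029 over all transcripts. Both transcripts of Glyma02g10320 are among the 5.

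No comparison in *G. soja* was past the threshold for 36 of the 100, and for 31.2% of all transcripts. Their mean levels in *G. soja* ranged from 1.05 to 184.5 RPKM with a median of 3.30 RPKM, against a median of 5.09 RPKM for the 64 that were called. The levels of those not called were thus lower, and a p above the threshold does not show that a transcript was unaffected. Glyma14g08776.1 was the least variable of the 36, with a coefficient of variation of 16.2%, while Glyma04g35130.1, also among them, had one of 46.2%.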

How the data were processed

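The authors sequenced TruSeq libraries on a HiSeq2000, and deposited RPKM values per library, made from Bowtie alignments to transcripts of Williams 82 by an in-house counting program after read quality was examined (FastX, FastQC). The Bowtie version, build and handling of reads that match several transcripts are not given in the sources used here. Samples were grouped by their labels. For 1 column of L92 (LD-SD, T5) the letter B matches no sample title, so it stayed in its group without a letter. Whether replicates came from separate plants is stated only as biological replicates.

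Of 73320 transcripts, 1 with an infinite value was left out and 1712 were at 0 in every library. Mapped reads and lengths were recovered from the deposited RPKM, and 99.9% of values were whole reads within 0.02. Values of 3 reads or fewer were taken as the floor. The pseudocount was 1.

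Within *G. soja*, log2(RPKM + 1) of its 27 libraries was fitted with limma 3.58.1 in R 4.3.3 (1 coefficient per group, eBayes with trend, mean of at least 0.1 RPKM, Benjamini-Hochberg adjusted p below 0.05). Only *G. soja* libraries entered, since values near 0 in the others would make the spread too small. Adjacent loci were tested on the libraries of all genotypes, so their standard errors have this limit. Both limma fits were first checked on artificial data with known changes. Tables and plots were made with Python 3.11.15, numpy 2.4.6, pandas 2.3.3 and matplotlib 3.10.9.

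The transcripts and lists were chosen with earlier results of these data known. Named are the 10 highest scores, the 5 highest levels, 3 transcripts on each side of the threshold, up to 3 called transcripts with the largest change in each direction of each comparison (F-tests: the 3 smallest p), the 5 best-scoring neighbouring pairs, and those said to be picked after their values were seen. The reference table given held none of the identifiers, so no names or sequences were used.

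The alternatives were another pseudocount (0.1), another filter (none, or 1 RPKM), another scaling (median-of-ratios factors, quantiles), eBayes without trend, a replicate block, omission of each replicate letter, a fit of all genotypes together and, for the choice of transcripts and runs, summed loci, means of groups and other distances.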

Additional observations from a re-analysis of the deposited data

Results flagged for a closer look

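For 13 of the transcripts named here, the change over time in *G. soja* differed between photoperiods by the interaction test (limma F-test over all transcripts). The adjusted p was 6.75e-06 for Glyma02g10320.1, 7.37e-06 for Glyma02g10320.2 and 0.000284 for Glyma11g32540.1, whose values are given above. Glyma02g33660.1 was low under SD and high under LD at T1, and the other way round, though not past the threshold, at T5. Its adjusted p was 0.00106. For Glyma17g20473.1 it was 0.00184, for Glyma16g22961.2 0.00419 and for Glyma01g01700.2 0.0046, 3 transcripts that were higher under SD than under LD at T1. For Glyma02g24490.1 it was 0.00491, with its largest gap at T3, and for Glyma01g01651.1 0.00707, which was lower under SD at T3. The remaining values were 0.0214 for Glyma20g02360.1, 0.0229 for Glyma13g32470.1, 0.0269 for Glyma02g32058.1 and 0.043 for Glyma04g35120.2. Among all transcripts 29.2% passed this test.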

How the results depend on the processing

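The counts of called transcripts moved most when the libraries of all genotypes were fitted together: 41 for SD minus LD, 40 for LD-SD minus LD, 39 for LD-SD minus SD, 53, 43 and 28 for SD minus LD at T1, T3 and T5, 79 for time points and 78 for the interaction. In that fit 26.2%, 23.1%, 14.3%, 34.9%, 25.6%, 11.6%, 61.7% and 47.1% of all transcripts were called in the same order, and the cause of the larger counts was not tested. With 1 replicate letter left out the counts were 4 to 7, 3 to 4, 3 to 5, 13 to 21, 2 to 8, 0 to 3, 30 to 38 and 6 to 22 in the same order, beside 5.84% to 9.38%, 4.31% to 5.74%, 1.01% to 2.78%, 14.8% to 17%, 5.12% to 12.3%, 0.579% to 2.78%, 36.9% to 37.3% and 10.9% to 17.8% of all transcripts. With a replicate block they were 13, 10, 8, 32, 13, 3, 43 and 28, and 63 adjacent transcripts were higher and 58 lower. The letters did not pair the libraries of *G. soja*: over 108 pairs of the same letter in different groups the mean correlation of deviations was -0.0135, and 31 exceeded 0.1.

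Of the 100 transcripts, 85 were chosen again with a pseudocount of 0.1, 90 to 91 without 1 letter, 97 with median-of-ratios factors and 49 when the means of the groups replaced the lowest and highest, and the 96 loci stayed when transcripts of a locus were summed. With adjacent loci only, 4 pairs remained in place of 8. The 39 named effects were refitted 429 times: 371 calls were kept, and of the 58 that were lost 50 came from leaving out a letter. No direction turned in the contrasts that give a direction, which the F-tests do not. With 3 replicates and few reads per transcript, small changes of low transcripts could not be detected.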
